A study of Mus musculus with 29 samples.

Results

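The subject is the TRAV10 family of mouse T cell receptor alpha (TRA) chains, that is, the clonotypes whose V segment was named TRAV10, TRAV10D, TRAV10N or a joining of these names only. A clonotype was 1 combination of V name, J segment and CDR3 residues, and only rows with a fully resolved, productive CDR3 were kept. The family had 1076 clonotypes and 15814 counts, out of 21959 TRA clonotypes and 319742 TRA counts, and out of 49343 clonotypes of both chains. It therefore held 4.90% of TRA clonotypes and 4.95% of TRA counts. The family was picked with its values in these samples in view, namely clonotypes detected in many samples, so sharing across samples is described here without a test.

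The samples were ovary and brain metastases from a mouse model of melanoma with mutated Braf. The series title concerns an antibody against the checkpoint ligand PD-L1 given ahead of MAPK pathway inhibition. The 10 ovary samples held 2 of each of 5 treatments. In brain, 4 samples came from mice with an anti-PD-L1 lead-in and then both agents (lead-in combination, day 3), 4 from trametinib with anti-PD-L1 (concurrent combination, day 3), 4 from trametinib alone (an inhibitor of the kinase MEK, day 3), 4 from the lead-in alone (day 0) and 3 from untreated animals (day 0, called vehicle in the titles). The labels used here name no strain, age or melanoma line. Titles carry a number, and mostly a part 1 or 2, without saying what these stand for, so tests measured the spread between 10 numbers, of which 5 had both organs. The table holds receptor rows only, so the organ labels could not be checked against marker genes.

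Each T cell builds its alpha chain by joining 1 V segment to 1 J segment at the alpha locus. The V segment supplies the germline loops and the first residues of the CDR3, and the CDR3, which spans the junction, contacts the peptide. The mouse locus holds its V segments in duplicated blocks, and near-identical copies carry the suffix D or N. An allele is often rearranged several times. First joins tend to use V segments near the J cluster and J segments near the V side, and later joins use V and J segments that lie farther apart. Mouse TRAV10 should not be confused with human TRAV10, the segment of human invariant natural killer T cells, whose mouse counterpart is TRAV11.

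In the RefSeq annotation of mouse assembly GRCm38.p6, the 3 copies lie on chromosome 14 and each sits between members of the TRAV6 family. TRAV10 lies between Trav6-5 and Trav6-6, TRAV10D between Trav6d-5 and Trav6d-6, and TRAV10N between Trav6n-5 and Trav6n-6. In gene order they are numbers 18 (TRAV10D), 52 (TRAV10N) and 92 (TRAV10) of 130 TRAV entries, so TRAV10 is the copy nearest to the J cluster. All 60 TRAJ entries follow the last TRAV entry, with TRAJ numbers falling along the locus away from the V segments.

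TRAV10 itself carried most of the family. Its name stood on 762 clonotypes with 12808 counts, the joined name TRAV10D/TRAV10N on 268 clonotypes with 2914 counts, and the joining of all 3 names on 46 clonotypes with 92 counts. TRAV10D and TRAV10N were never named alone, so these 2 copies cannot be told apart here. The TRAV10 name held 81.2% of the family's counts in ovary and 79.8% in brain. Among 1014 distinct pairs of CDR3 and J, 60 stood under more than 1 of the family's names, and 2 of these stood under all 3. Separate names for an identical CDR3 and J may be separate cells or 1 cell named in different ways, and this was not tested.

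The family's CDR3s mostly began alike. A single run of 4 residues opened 63.7% of the family's clonotypes and 17.03% of the other TRA clonotypes, and the next most frequent opening in the family stood on 9.48%. The first residues of a CDR3 are encoded by the V segment and the last by the J segment. How many of these 4 residues come from the V segment was not checked. Germline sequences of the 3 copies were not used here, so clonotypes are named by their V name, TRAJ segment and CDR3 length.

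Sequencing depth differed strongly between the organs. Ovary samples had 14088 to 51549 TRA counts and brain samples 230 to 9389. The family accordingly had 781 to 2905 counts per ovary sample and 1 to 336 per brain sample. The labels do not tell if counts are reads or molecules, so exact Clopper-Pearson 95% intervals cover counting error only. In bulk RNA, more cells of a clonotype and more receptor RNA per cell cannot be told apart.

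In brain, no difference between treatments in the family's share of TRA counts passed the test. In the lead-in combination, number 12 had 3.56% and 3.28% in its 2 parts and number 14 had 4.18% and 2.00%. In the concurrent combination it was 4.01% and 4.92% in number 1 and 2.36% and 3.08% in number 6. The samples of both combinations overlapped. Trametinib alone gave 7.69% and 9.88% in number 8 and 2.78% and 6.60% in number 13. The lead-in alone gave 0.435% and 3.71% in number 10 and 3.94% and 3.56% in number 11. Number 8 lay above all other brain samples, while in number 13 part 1 lay among the samples of the other treatments and part 2 above them. Untreated samples had 5.79% and 2.97% in number 3 and 5.51% in number 7. The value of 0.435% in part 1 of number 10 rests on 1 count of 230, with an interval of 0.0110% to 2.399%.

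Averaged over samples, the share was 3.26% ± 0.917 for the lead-in combination (SD over 4 samples). The concurrent combination averaged 3.59% ± 1.113, trametinib 6.74% ± 2.97 and the lead-in alone 2.91% ± 1.66, each over 4 samples, and the 3 untreated samples averaged 4.76% ± 1.55. Counts summed per number were compared with edgeR's quasi-likelihood test over 37 V families of both chains, all scaled to the total of their chain. The family had enough counts to be tested in every comparison. Its log2 difference was -0.14 (SE 0.45, edgeR adjusted p = 0.949) for the lead-in combination over the concurrent one. For the concurrent combination over trametinib it was -0.80 (SE 0.46, adjusted p = 0.634), the share being lower in the concurrent combination without passing. That value was -0.26 without number 8, -0.47 without number 6, -1.20 without number 13 and -1.23 without number 1. Trametinib against untreated samples gave 0.38 (SE 0.47, adjusted p = 0.928), and the lead-in alone against untreated samples -0.53 (SE 0.47, adjusted p = 0.794). Trametinib and day cannot be told apart in the trametinib comparison, since all its samples were taken on day 3.

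Few V families passed in any brain comparison. Of 37 families, 2.70% were called between the concurrent combination and trametinib (1 family, TRAV2, lower in the concurrent combination) and 0% in each of the other 3 brain comparisons. In those 3, edgeR gave 1 to 4 families at an unadjusted p under 0.05, and DESeq2 called 0. Over the 10 numbers, differences between the 5 treatments made up 55.3% of the variation (sum of squares) in the family's log2 share. Many other assignments of the numbers to treatments reached at least this percentage (exact permutation p = 0.329, the smallest possible being 0.00106).

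**Figure D1:**
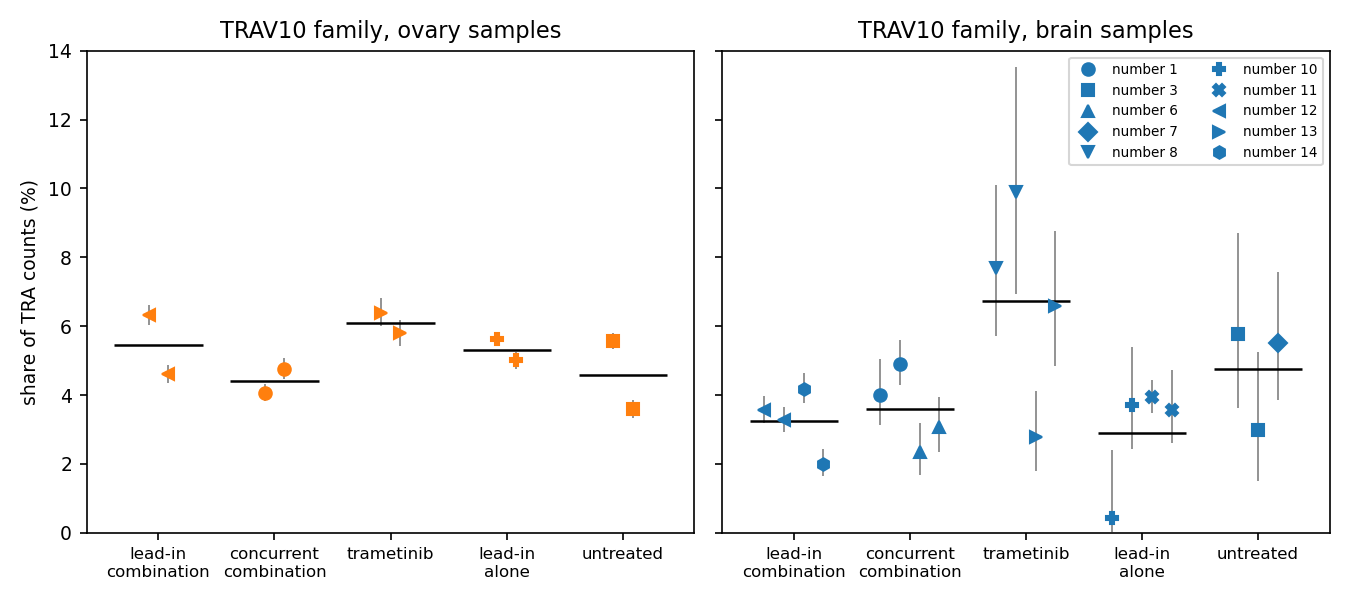
Share of TRA counts (%, linear axis) held by the TRAV10 family in each ovary sample (left) and brain sample (right), by treatment. Symbols mark the number, grey bars are exact 95% intervals for counting error and black lines are means over samples; the 4 trametinib brain samples span 2.78% to 9.88%, and the ovary samples lie between 3.59% and 6.40%.

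Ovary samples had narrower spread. The lead-in combination had 6.32% and 4.60%, the concurrent combination 4.06% and 4.77%, trametinib 6.40% and 5.79%, the lead-in alone 5.64% and 5.01%, and untreated samples 5.56% and 3.59%. Each ovary treatment rests on 1 number, so treatments were not tested there. Over all samples the share averaged 5.17% ± 0.93 (SD, n = 10) in ovary and 4.22% ± 2.16 (SD, n = 19) in brain.

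Within the 5 numbers with both organs, the family's share was higher in ovary in 4. With the parts summed, ovary had 4.37%, 4.84%, 5.41%, 5.53% and 6.09% in numbers 1, 3, 10, 12 and 13, and brain had 4.66%, 4.37%, 2.90%, 3.42% and 4.44%. The groups overlapped at number 1, where brain was the higher of the pair. In edgeR the log2 difference was 0.41 (SE 0.25, unadjusted p = 0.118, adjusted p = 0.717 over 40 families, of which 0% were called). At an unadjusted p under 0.05, edgeR gave 2 families and DESeq2 gave 4, and DESeq2 also called 0 after adjustment. An exact sign-flip test of the paired log2 shares gave p = 0.125, where 0.0625 is the smallest 5 pairs allow. With the number as a block, the edgeR log2 difference was 0.42 (adjusted p = 0.338). An unpaired exact permutation test of the same shares, added after the data were seen, gave p = 0.0238. It leaves out the pairing by number, as does the edgeR fit without a block. Of the tests that keep the pairing, the sign-flip test cannot reach 0.05 with 5 pairs, and edgeR with the block did not pass.

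The 6 clonotypes found in 4 or more numbers held 30.3%, 11.02%, 21.3%, 66.5% and 35.1% of the family's counts in ovary numbers 1, 3, 10, 12 and 13, against 14.03%, 0%, 0%, 19.8% and 8.82% in the same brain numbers. Without them the family's share was 3.05%, 4.31%, 4.26%, 1.85% and 3.95% of TRA in ovary and 4.004%, 4.37%, 2.90%, 2.74% and 4.05% in brain. It was then higher in ovary in 1 of 5 numbers, number 10. These 6 clonotypes were picked by their detection in these same samples, and most were detected in more numbers of the deeper organ, ovary. Those with the most counts were not: the TRAJ12 clonotype was found in 3 numbers of each organ, and the TRAJ27 clonotype of 15 residues in 4 of each. Leaving the 6 clonotypes out may lower ovary more than brain through the choice itself, which was not tested. These values are a description that does not locate the difference between the organs.

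The copies of the family differed in the mean position of their J partners, although both names were spread over nearly the whole J cluster (40 of 41 TRAJ segments for TRAV10 and 39 for TRAV10D/TRAV10N). Within each number, clonotypes named TRAV10 had a mean TRAJ number of 28.6, 29.5, 31.9, 29.7, 27.2, 29.4, 33.0, 26.3, 28.4 and 27.1 in numbers 1, 3, 6, 7, 8, 10, 11, 12, 13 and 14. Clonotypes named TRAV10D/TRAV10N had 31.03, 22.2, 27.1, 17, 17.7, 25.0, 28.4, 23.0, 24.0 and 20.9 in the same order. TRAV10, the copy nearest to the J cluster, was thus joined on average to J segments nearer to the V side in 9 of 10 numbers, number 1 being the exception. The mean difference was 5.47 TRAJ numbers ± 3.99 (SD over 10 numbers; 29.1 against 23.6; exact sign-flip p = 0.00391, adjusted p = 0.0156 over 4 tests of this kind). This comparison was added after the data were seen.

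Numbers 7 and 8 had only 3 TRAV10D/TRAV10N clonotypes each. Over the 8 numbers with at least 10 clonotypes of each name the difference was 4.06 (higher in 7 of 8, exact sign-flip p = 0.0156). In ovary samples alone it was 2.69 (higher in 4 of 5 numbers, exact p = 0.25, where 5 numbers cannot go below 0.0625), and in brain samples alone 5.36 (higher in 8 of 10, exact p = 0.0117). No minimum of clonotypes was set in the split by organ. Brain number 10 had 1 TRAV10D/TRAV10N count in each part, and brain number 3 had 1 and 8. Whether the organs differ in the gap between the names was not tested.

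Over all samples, TRAJ20 or a lower number was used by 20.7% of clonotypes named TRAV10 (158 of 762), by 38.1% of those named TRAV10D/TRAV10N (102 of 268) and by 23.4% of the other TRA clonotypes. At the V side, TRAJ41 or a higher number was used by 16.7%, 15.7% and 20.7% of the same sets. TRAJ9 stood on 24 clonotypes (8.96%) named TRAV10D/TRAV10N, against 14 (1.84%) named TRAV10. In the other direction, TRAJ33 stood on 27 clonotypes (3.54%) named TRAV10 and 2 (0.746%) named TRAV10D/TRAV10N. These J segments were chosen after their values were seen. Mean CDR3 length did not separate the names, with 13.47 residues for both and a difference of 0.0015 (exact sign-flip p = 0.990).

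**Figure D2:**
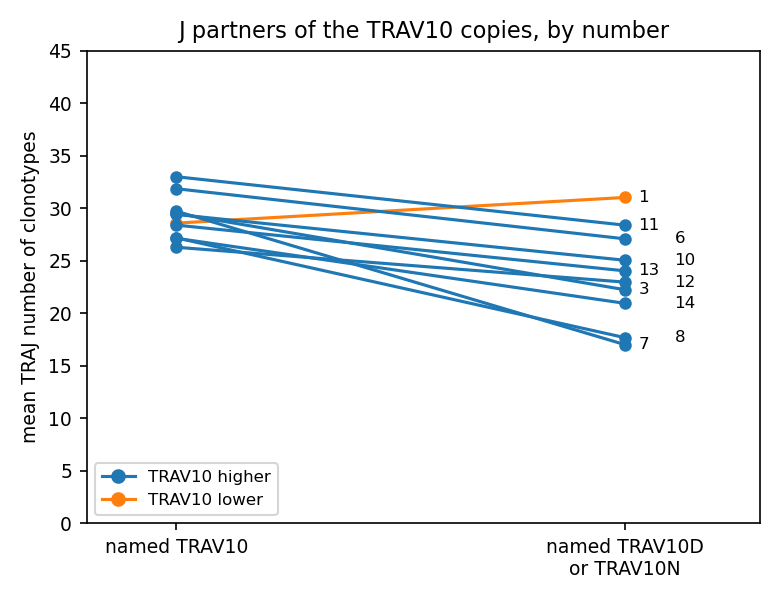
Mean TRAJ number (linear axis) of the clonotypes named TRAV10 (left) and TRAV10D or TRAV10N (right), each line joining the 2 means of 1 number, with the number written at the right. High TRAJ numbers lie near the V segments; the TRAV10 mean is the higher one in 9 of 10 numbers, and numbers 7 and 8 rest on 3 TRAV10D/TRAV10N clonotypes each.

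For the family as a whole, neither measure's difference from the rest of TRA passed. Its mean TRAJ number was 27.6, against 29.1 for other TRA clonotypes, a difference of -1.48 ± 2.30 (SD, lower in 8 of 10 numbers, exact sign-flip p = 0.0723, adjusted p = 0.145). Its mean CDR3 length was 13.48 residues, against 13.59, a difference of -0.10 (lower in 7 of 10 numbers, exact sign-flip p = 0.150, adjusted p = 0.201).

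The family used all 41 TRAJ segments of the table, and TRAJ31 and TRAJ27 were more frequent than in other TRA clonotypes. TRAJ31 was on 10.2%, 10.9%, 0%, 0%, 15%, 5.81%, 12.5%, 9.64%, 9.23% and 7.81% of the family's clonotypes in numbers 1, 3, 6, 7, 8, 10, 11, 12, 13 and 14. In the rest of TRA it was on 3.95% to 6.84%. The family exceeded the rest in 8 of 10 numbers, with means of 8.11% ± 4.94 and 5.12% ± 0.84 (SD, n = 10). TRAJ27 was on 6.80%, 4.74%, 8.82%, 10%, 5%, 9.30%, 7.14%, 8.63%, 10.8% and 3.13% of the family's clonotypes in the same numbers, and on 2.71% to 5.25% in the rest. It was higher in 9 of 10 numbers, with means of 7.43% ± 2.51 and 4.06% ± 0.74.

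With the number as a block, 5% of TRAJ segments passed (2 of 40, both higher in the family). The log2 difference was 0.78 (SE 0.19, edgeR adjusted p = 0.00185) for TRAJ31 and 0.85 (SE 0.23, edgeR adjusted p = 0.00422) for TRAJ27. DESeq2 called neither (adjusted p = 0.180 for TRAJ31 and 0.158 for TRAJ27), and neither passed when each count replaced each clonotype (edgeR adjusted p = 0.590 and 0.0678). TRAJ27 also missed the threshold without number 10 (edgeR adjusted p = 0.0582) and without number 13 (0.0512). It missed it too without all TRA clonotypes of 4 or more numbers, 6 in the family and 125 in the rest (edgeR adjusted p = 0.113). Among the TRAJ segments that did not pass, TRAJ4 had the highest positive log2 difference (1.05, SE 0.38, adjusted p = 0.0831) and TRAJ58 the lowest (-1.68, SE 0.67, adjusted p = 0.125), both named after their values were seen.

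**Figure D3:**
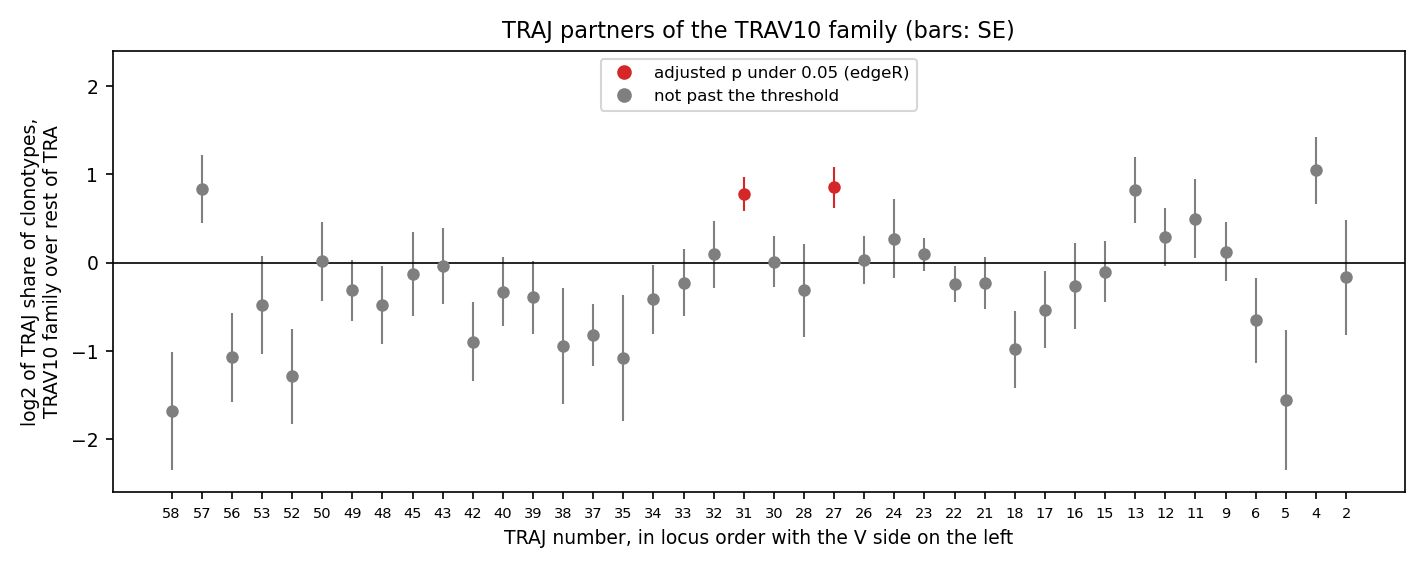
log2 ratio of the TRAJ share of clonotypes in the TRAV10 family over that in the rest of TRA, for the 40 tested TRAJ segments in locus order, with SE bars from edgeR. The 2 red points, TRAJ31 at 0.78 and TRAJ27 at 0.85, are those with an edgeR adjusted p under 0.05.

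By counts, a few clonotypes set the J profile. TRAJ27, TRAJ12, TRAJ31, TRAJ57 and TRAJ23 were picked as the 5 TRAJ with most counts in the family. They held 53.0% of the family's counts and 22.8% of those of the rest of TRA, a difference that this choice favours. A single clonotype carried 75.0% of the family's TRAJ27 counts and 93.5% of its TRAJ12 counts. For TRAJ31 and TRAJ57 the largest clonotype held 45.8% and 36.5%. TRAJ23, with 77 clonotypes, was less dominated (22.5%) and held a smaller share of counts in the family (5.37%) than in the rest (11.3%).

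Most clonotypes of the family were found in a single number. Of 1076, 996 occurred in 1 number, 61 in 2, 13 in 3 and 6 in 4 or more. The share found in 4 or more numbers was 0.558% in the family and 0.599% in the rest of TRA, and the share in at least 2 numbers was 7.43% and 6.61%. Ranked over 21 TRAV families, TRAV10 was ninth in the first share and sixth in the second. Counted by clonotype, presence in 4 or more numbers was therefore not more frequent than in the rest of TRA. By counts the picture differed: the clonotypes of 4 or more numbers held 29.7% of the family's counts and 12.9% of those of the rest. Just inside the limit, the 3 clonotypes in 4 numbers had 2083, 24 and 16 counts, while the 13 just outside, in 3 numbers, had a median of 39 counts.

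Clonotypes of 2 or 3 numbers had fewer residues between a common V opening and a common J ending. The commonest V opening and J ending of the family were matched to each CDR3, and the residues left between them were counted. Germline sequences were not used, so this count may differ from the true length of the junction. The mean was 2.49 ± 2.00 (SD) in clonotypes of 1 number, 1.84 ± 1.75 in those of 2, 1.23 ± 0.73 in those of 3 and 1.83 ± 0.75 in those of 4 or more. At most 1 residue was left in 29.6%, 50.8%, 61.5% and 33.3% of these classes. All 6 clonotypes of 4 or more numbers were named TRAV10, and 5 of them had the commonest opening. Of all 1076 family clonotypes, 762 were named TRAV10 and 63.7% had that opening. Among the 61 clonotypes of 2 numbers, 51 were named TRAV10 and 77.0% had it. These are descriptions with no test.

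The TRAJ27 clonotype of 15 residues was detected most widely, in 6 numbers and 13 samples with 1737 counts. In ovary it had 16 and 163 counts in the parts of number 12 (lead-in combination), 161 and 23 in number 1 (concurrent combination), 329 and 42 in number 13 (trametinib), 689 and 230 in number 10 (lead-in alone) and 0 in both parts of number 3 (untreated). Its highest share of TRA was 2.34%, in part 1 of ovary number 13, where it held 36.5% of the family. In brain it had 22 and 20 counts in number 12, 3 in part 2 of number 1, 37 in part 1 of number 11 and 2 in number 7, and 0 in the other samples. It was found in all 5 treatments, and its counts lay far apart between the parts of ovary numbers 1, 12 and 13.

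The TRAJ31 clonotype, of 13 residues, was found in 6 numbers and 12 samples with 720 counts, and in all 5 ovary numbers. It had 220 and 169 counts in ovary number 1 and 119 and 123 in ovary number 3, and 39 or fewer in each other ovary sample. In brain it was highest in number 1, with 4 and 32 counts. Brain and ovary of number 1 together held 59.0% of its counts. The same CDR3 with TRAJ31 also stood under 7 V names outside the family, with 253 counts in 7 numbers.

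The TRAJ12 clonotype, of 14 residues, had the most counts, 2083 in 4 numbers and 11 samples, of which 85.3% were in number 12. In ovary number 12 (lead-in combination) it had 1186 and 512 counts, 4.29% and 2.18% of TRA and 67.8% and 47.5% of the family. All 4 brain samples of the lead-in combination held it, with 65 and 14 counts in number 12 and 85 and 40 in number 14. Besides number 12 and number 14 it was found in number 13 (trametinib), with 114 and 55 counts in ovary and 5 and 1 in brain, and in number 3 (untreated), with 6 counts in part 1 of ovary. No count was found in the concurrent combination or the lead-in alone, where the 4 brain samples of each had 1697 to 4272 and 230 to 6782 TRA counts. The share that 0 counts allow was taken as 3 counts over the TRA counts of a sample, which covers counting error only. For the smallest of these samples it was 1.304%, above all 4 brain shares of the lead-in combination (0.149% to 1.06%). Ovary samples of these 2 treatments were deeper, and there the limit was 0.0151% or less. Each of these ovary treatments rests on 1 number, so absence from a treatment is not shown.

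The other 3 had few counts. The TRAJ57 clonotype (14 residues) had 116 counts in 5 numbers, with 33 or fewer in each sample but part 1 of ovary number 3, which had 44. The TRAJ27 clonotype of 14 residues had 24 counts in 4 numbers, 19 of them in ovary number 3. The TRAJ22 clonotype (13 residues) had 16 counts in 4 numbers, and its CDR3 and J stood under 14 V names outside the family with 308 counts in 9 numbers. With 1 to 7 counts per sample, its presence under the TRAV10 name is near the limit of detection.

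**Figure D4:**
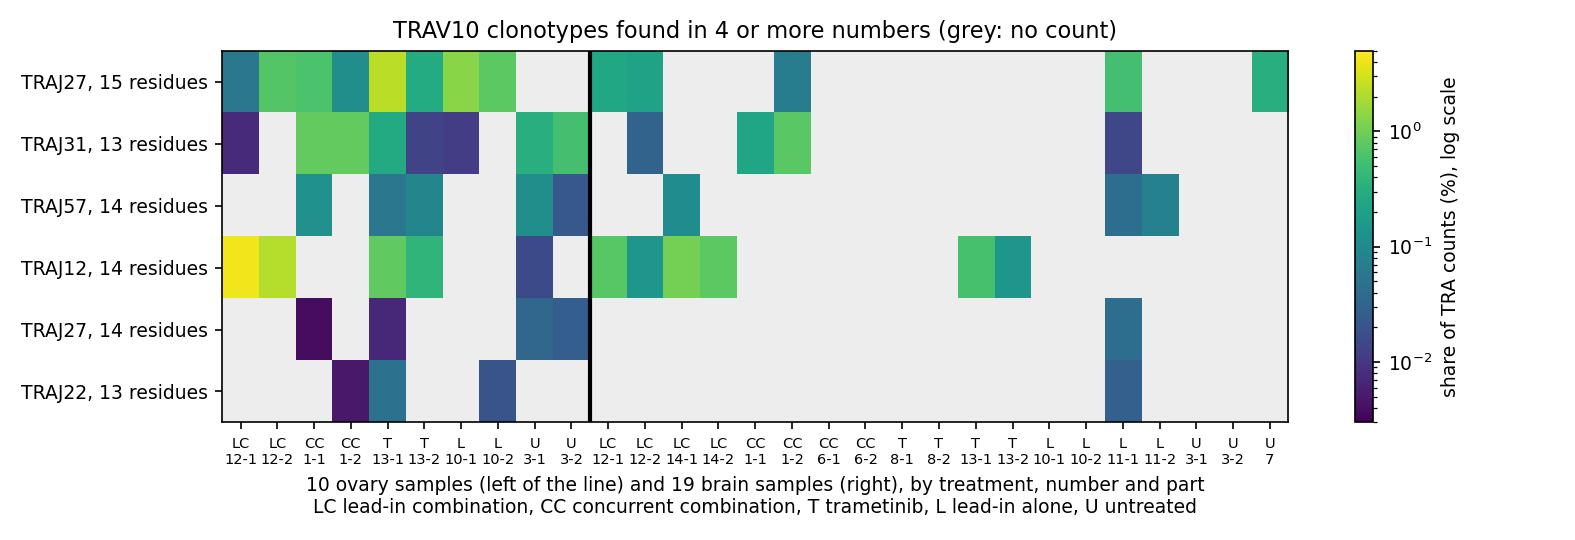
Share of TRA counts (%, log colour scale) of the 6 TRAV10 clonotypes found in 4 or more numbers, named by TRAJ and CDR3 length, in 10 ovary samples (left of the line) and 19 brain samples (right), with grey for no count. The TRAJ12 clonotype fills all 4 brain samples of the lead-in combination and reaches 4.29% in ovary number 12, and the TRAJ27 clonotype of 15 residues reaches 2.34% in ovary number 13.

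The largest family clonotype differed between groups. The TRAJ12 clonotype led in the lead-in combination in both organs, with 3.24% ± 1.49 of TRA counts in ovary (SD, n = 2) and 0.677% ± 0.381 in brain (n = 4). In the concurrent combination a TRAJ4 clonotype of 13 residues led in both, with 399 counts in ovary and 47 in brain, all in number 1. In untreated samples a TRAJ30 clonotype of 13 residues led in both, with 261 counts in ovary and 8 in brain. In brain, a TRAJ22 clonotype of 14 residues led in trametinib with 20 counts, all in number 8, and a TRAJ37 clonotype of 14 residues led in the lead-in alone with 13 counts in 1 sample. In ovary the TRAJ27 clonotype of 15 residues led in both of these treatments. The group leaders of brain thus rested on 1 number in 4 of 5 treatments.

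Brain clonotypes of the family recurred in the ovary of the same number. Of the brain clonotypes of numbers 1, 3, 10, 12 and 13, 18 of 73 (24.7%), 5 of 10, 3 of 6, 25 of 91 (27.5%) and 8 of 23 (34.8%) were found in the ovary of that number. In the ovary of any other number, 0% to 13.04% were found. Between the parts of a number, 15 to 34 family clonotypes were shared in ovary (15.8% to 28.6% of those of part 1) and 0 to 20 in brain (0% to 39.2% of those of part 1). The brain clonotypes that recurred in their own ovary held 54.7%, 75.0%, 37.0%, 67.2% and 50% of the family's brain counts in numbers 1, 3, 10, 12 and 13.

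Across the 10 brain numbers, the TRAV families whose log2 share was most like that of TRAV10 were TRAV2 (Pearson r = 0.73, 49 brain counts), TRAV8 (0.63, 3123 counts) and TRAV11 (0.52, 797 counts), out of 20 families. All these shares come from the same libraries and total of TRA counts.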

How the data were processed

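Per the labels' protocols, receptor transcripts of 29 samples were amplified with a QIAseq kit for immune repertoires. Deposited were whole-number counts, without normalization, for each chain, V name, J name and CDR3. Aligner, caller and filters are not stated in the labels used here. GRCh38, a human build, is named in the submitters' processing notes, so coordinates are left out. CDR3 with an unresolved residue (0.0144% of TRA counts) were left out. Joined V names were kept as written. 3 rows with 6 counts that join TRAV10 copies with other families stayed outside the family.

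Parts of a number were summed. V families reaching 10 counts in 2 or more libraries were tested with edgeR 4.0.16, scaled to chain totals, with Benjamini-Hochberg adjustment and a threshold of 0.05. TRAJ usage was tested on clonotypes per number, with the number as a block. DESeq2 1.42.0 was an alternative. Single values were tested two-sided by exact sign-flip or permutation tests over numbers, in Python 3.11.15. SE is the log2 difference over the root of the quasi-likelihood F. Both kinds of test were tested on simulated data, edgeR only in the ovary against brain fit. The log2 changes simulated there were larger than those reported for the family.

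Same-numbered brain and ovary samples deviated together in the usage of 21 TRAV families (correlations of 0.280 to 0.953, all above 0.1), which was taken as pairing. The 20 pairs of different numbers ran from -0.861 to 0.725, so some exceeded the matched values of numbers 3 and 10. Brain number 13 with ovary number 1 (0.725) also exceeded the matched value of number 1 (0.657). Several pairs of different numbers lay above 0.1 too, so this check does not establish the pairing. No 2 sample columns were identical. The members, lists and tests were chosen with earlier results of these data known. Named were the 3 copies, TRAJ segments past the threshold and the 5 of most counts, clonotypes of 4 or more numbers, the largest clonotype of each group and the 3 most alike families.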

Additional observations from a re-analysis of the deposited data

Results flagged for a closer look

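In brain samples of the lead-in alone, part 1 of number 10 stood apart from the other 3 samples of its group, with 0.435% of TRA counts in the TRAV10 family. It held 1 family count of 230. Chance marks about 1 in 20 groups in this way, and 4 groups were examined.

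The lead-in alone and untreated samples differed in opposite directions in the organs. In ovary both samples of the lead-in alone lay above the untreated mean, by 0.745 percentage points on average. These ovary samples are parts of number 10 alone, set against parts of number 3 alone, so they are not separate replicates. In brain all 4 lay below it, with a mean difference of -1.85 percentage points, or -1.02 without part 1 of number 10. The brain comparison did not pass (edgeR adjusted p = 0.794). The difference between the organs was not tested and the individual samples overlapped.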

How the results depend on the processing

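The brain comparisons stayed short of the threshold under every alternative run. With a number left out, trametinib against untreated samples ran from -0.15 (without number 8) to 0.78, and lead-in combination against concurrent combination from -0.47 to 0.30 (without number 1). With TMM scaling the second was 0.10. Concurrent combination against trametinib ran from -1.23 (without number 1) to -0.26 (without number 8), and the lead-in alone against untreated samples from -0.76 to -0.35. Leaving out a number leaves 1 in its treatment, which was assumed to vary like the others.

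Ovary against brain was -0.031 without the clonotypes of 4 or more numbers, a drop that their choice by detection in the same samples may favour. With the number as a replicate block, which pairs the organs, it was 0.42 (edgeR adjusted p = 0.338), and the block changed no call there. Unpaired exact permutation passed for the log2 share averaged over parts (0.66, p = 0.0159), for the pooled share (0.42) and with part 1 of brain number 10 left out (0.36), but not without number 10 (0.31, exact p = 0.0571), all added after the data were seen.

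The count of TRAJ past the threshold was 1 without the clonotypes of 4 or more numbers, in the family and in the rest of TRA. It was 0 in DESeq2 (8 at an unadjusted p under 0.05, and 11 in edgeR) and 7 without the block. With a number left out it was 1 to 4 (4 without number 3 or 12, 1 without number 10 or 13). With each count it was 2, but these were TRAJ18 and TRAJ5, both lower. Mean TRAJ number of the family minus the rest ran from -1.93 to -1.22 with a number left out, and passed without number 6 or 11. Its CDR3 length difference ran from -0.146 to -0.0725, passed without number 7, and was 0.0531 by counts.

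TRAV10 minus TRAV10D/TRAV10N in TRAJ number was 2.69 in ovary samples, which cannot pass with 5 numbers. For CDR3 length this difference was -0.0309 without the clonotypes of 4 or more numbers, -0.135 over numbers with at least 10 clonotypes of each name, -0.166 in ovary and -0.0907 to 0.108 with a number left out. The causes of these changes were not tested. Depth limits brain most, since several samples held under 50 family counts.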
